A study of Caenorhabditis elegans with 2 samples.

Results

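The regions described here are the 1275 regions on the X chromosome, out of 9660 in the relaxed peak list of the pooled replicates, whose summit lay over 500 bp from the start of every annotated tRNA gene. The same rule gave 8047 regions on the 5 autosomes and left out 144 X regions and 194 autosomal regions near tRNA starts. TRA-4, a zinc finger protein that takes part in sex determination of the nematode Caenorhabditis elegans, was mapped by chromatin immunoprecipitation and sequencing (ChIP-seq). Strain OP640 (unc-119(tm4063) III; wgIs640) carries an integrated transgene that expresses TRA-4 with a GFP-FLAG tag at its C terminus, and an anti-GFP antibody was used for precipitation. Whole early embryos of pooled sex were collected by egg bleaching, their chromatin was sheared by sonication, and 2 biological replicates form the 1 group, so there is no second condition. The unc-119 mutation and the tagged transgene are shared by both replicates, the share of males is not given, and untagged TRA-4 is not analysed here. The labels do not say whether the replicates came from separate cultures.

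The X chromosome is present as a pair in hermaphrodites and as a single copy in males. In hermaphrodite embryos the dosage compensation complex binds X at recruitment sites, many of which carry a short X-enriched motif (MEX), and lowers transcription along the whole chromosome. X also carries many of the tRNA genes, which RNA polymerase III transcribes from promoter elements inside the gene, the A box and the B box. A region near a tRNA gene on X can therefore belong to that gene rather than to the rest of the chromosome, which is why both kinds were separated. By the annotation, X holds 276 of the 612 nuclear tRNA genes, and the autosomes hold between 57 and 78 each.

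The summit sequence of the strongest X region is shown first, and then those 7 of the 23 X regions in the authors' final set that were picked because they hold a known pattern or a repeat. Each line gives 101 bases centred on the summit, read on the plus strand of the ce11 build (WBcel235, RefSeq sequence). After the ftt-2 summit, whose middle base alone is in capitals, 3 hold the B box pattern GTTCNANNC of polymerase III promoters on either strand, the next pair hold the MEX core GCGCAGGG, and the last pair hold runs of a repeated dinucleotide. The capitals mark these matches. The other regions of the final set on X, among them those at ranks 8, 52, 65, 119 and 195, held none of the 3 features in this window. Names are those of the nearest protein-coding start, except that the summit nearest cest-16 lies inside mom-1.
ftt-2, chrX:11605900-11606000: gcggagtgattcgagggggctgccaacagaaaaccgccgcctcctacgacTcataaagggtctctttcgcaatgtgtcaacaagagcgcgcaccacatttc
T13C5.6, chrX:6207852-6207952: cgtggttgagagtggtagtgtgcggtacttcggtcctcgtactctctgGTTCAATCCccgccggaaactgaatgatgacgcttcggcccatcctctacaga
idpp-9, chrX:3914402-3914502: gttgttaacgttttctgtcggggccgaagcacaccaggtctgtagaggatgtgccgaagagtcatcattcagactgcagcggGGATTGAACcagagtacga
F59C12.4, chrX:16602620-16602720: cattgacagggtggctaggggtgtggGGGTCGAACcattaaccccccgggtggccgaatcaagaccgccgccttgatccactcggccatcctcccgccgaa
mom-1 (nearest start cest-16), chrX:6296509-6296609: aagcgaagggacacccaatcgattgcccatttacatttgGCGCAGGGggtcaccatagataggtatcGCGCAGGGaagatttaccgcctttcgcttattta
W02H3.3, chrX:11094160-11094260: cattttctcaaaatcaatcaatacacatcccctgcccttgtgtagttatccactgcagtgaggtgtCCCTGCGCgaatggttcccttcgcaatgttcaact
sto-4, chrX:11643881-11643981: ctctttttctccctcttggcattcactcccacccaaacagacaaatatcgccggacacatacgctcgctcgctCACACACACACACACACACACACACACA
spat-3, chrX:4606452-4606552: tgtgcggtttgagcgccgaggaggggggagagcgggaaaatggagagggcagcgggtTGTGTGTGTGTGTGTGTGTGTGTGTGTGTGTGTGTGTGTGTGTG

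Away from tRNA genes, X held fewer regions than its length. X makes up 17.7% of the nuclear sequence and held 13.7% of the regions (95% interval 13.0 to 14.4), or 72.0 regions per Mb. The autosomes together held 97.5 per Mb, from 68.9 on V to 126.5 on III, so the density on X lay inside the autosomal range. Intervals of shares are exact (Clopper-Pearson), and those of differences between shares are normal approximations. Both cover counting error only, since regions of 1 experiment are not replicates. Read counts were not used, and the depth behind each region is unknown. The authors' signal value of the X members ran from 43.96 to 402.3 with a median of 51.7, and 1274 of the 1275 had a width of 480 bp.

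The X members also ranked somewhat lower than the autosomal regions. Their median rank by signal was 5333 (quartiles 2765 to 7510.5), against 4875 for autosomal regions, where the chromosomes ranged from 4767 to 5169. As a percentile of the pooled list, where low values are strong, the X median was 55.2 and the autosomal median 50.5. In the list of replicate 1 the X median was at the 53.8th percentile, against 49.8 for the autosomes (46.7 to 53.6 by chromosome). In the list of replicate 2 it was 54.2 against 50.4 (48.5 to 52.8). In each list X thus stood past the weakest autosome, by little in replicate 1.

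The lower share of X was found at the top of the list. X held 4 of the 63 regions away from tRNA starts among the 100 strongest (6.35%, 1.76 to 15.5), 19 of 209 at ranks 101 to 394 (9.09%, 5.56 to 13.8) and 50 of 539 at ranks 395 to 1000 (9.28%, 6.96 to 12). It was 14.3% at ranks 1001 to 2500, 12.4% at ranks 2501 to 5000 and 15% (14 to 16.1) at ranks 5001 to 9660. With the regions near tRNA starts counted in, X held 24.0% of the 100 strongest and 19.4% of the next tier, so the top tiers were the richest in X with the tRNA regions and the poorest without them. Taking the 394 strongest regions away from tRNA starts in each list, X held 31 (7.87%) in the pooled list, 37 (9.39%) in replicate 1 and 32 (8.12%) in replicate 2. Its share of all such regions in those lists was 13.7, 15.6 and 14.3%.

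**Figure D1:**
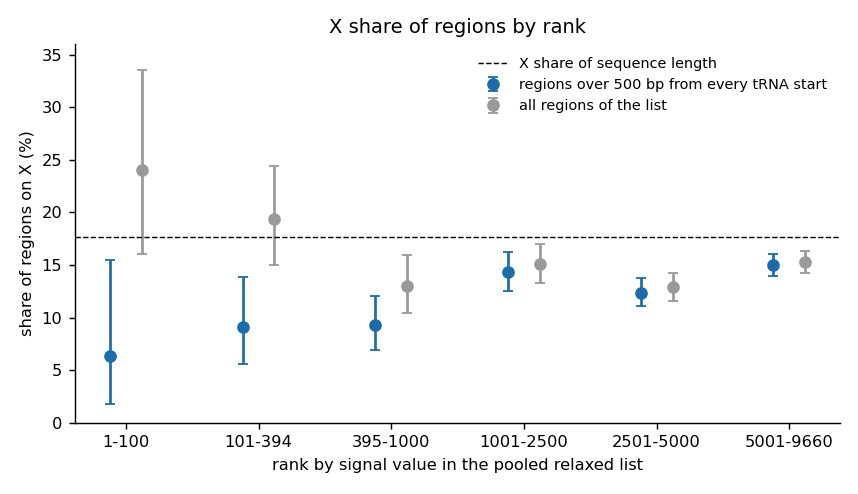
Share of regions that lie on X (%, with exact 95% intervals) in tiers of rank by signal in the pooled list; blue points leave out regions near tRNA starts, grey points count all regions and the dashed line is the share of X in sequence length. The blue points lie at 6.35 to 9.28% up to rank 1000 and at 12.4 to 15% beyond it, while the grey points are highest at ranks 1 to 100 (24.0%).

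Few of the X members entered the authors' final set, which keeps regions whose ranks recur between replicates, by the irreproducible discovery rate (IDR). The set held 394 entries, which are the 394 strongest of the pooled list, so membership and rank are a single measure here. Membership therefore does not mean that a region ranked alike in both replicates. Over all chromosomes, 2.92% of regions away from tRNA starts were in it. On X they were 23 of 1275 (1.80%, 1.15 to 2.69) and on the autosomes 249 of 8047 (3.09%, 2.73 to 3.50), with the autosomes between 2.71% on V and 3.50% on III. Near tRNA starts 58 of the 144 X regions were in the set (40.3%). Those made up 71.6% of the 81 X entries, against 20.4% of the 313 autosomal entries.

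Each replicate list gave the same order, but this is no separate test. Both lists were scored against the same IDR entries, which were themselves selected from both replicates. Of the X regions in replicate 1, 34 of 2906 overlapped an IDR entry (1.17%, 0.812 to 1.63), against 2.29% of autosomal regions (1.91 to 2.93 by chromosome). In replicate 2 they were 32 of 1941 (1.65%, 1.13 to 2.32), against 2.81% (2.35 to 3.31). By the deposited q-value, 4.14% of all regions away from tRNA starts were under 0.05, with 30 on X (2.35%) and 4.42% of the autosomal ones (3.82 to 4.93 by chromosome).

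The gap to the autosomes was narrower once other small RNA genes were left out. X holds 33 of 346 snoRNA genes, whose small nucleolar RNAs direct the chemical modification of other RNAs, and 3 of 129 snRNA genes, whose small nuclear RNAs mostly serve in splicing. Without regions within 500 bp of their starts, the IDR share was 23 of 1271 on X (1.81%, 1.15 to 2.70) and 181 of 7858 on the autosomes (2.30%, 1.98 to 2.66). X then lay below the weakest autosome by little, as V stood at 1.92% and III at 3.10%. The difference between X and the autosomes was -1.29 percentage points (-2.11 to -0.468) with all regions and -0.494 points (-1.30 to 0.311) without those near snoRNA and snRNA starts, an interval that includes 0.

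**Figure D2:**
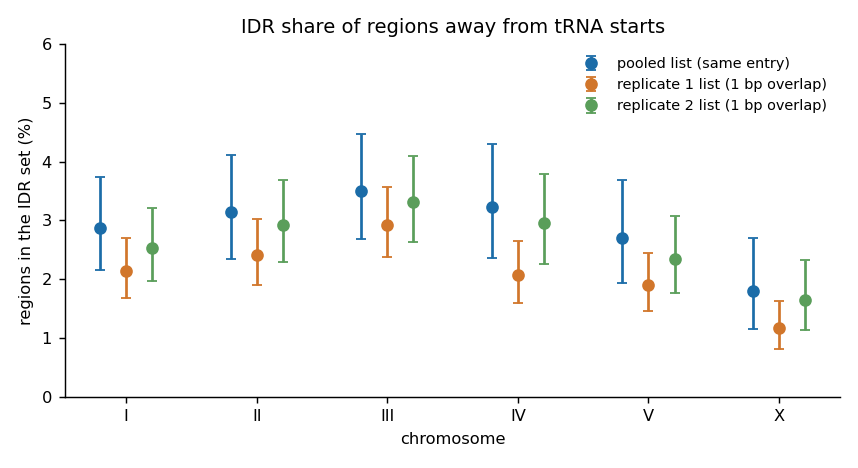
Share of regions over 500 bp from every tRNA start that are in the IDR set (%, with exact 95% intervals), by chromosome, for the pooled list (same entry) and for each replicate list (1 bp overlap). X has the lowest point in each list, at 1.80, 1.17 and 1.65%, with intervals that overlap those of several autosomes. All lists are scored against the same IDR set.

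The IDR share on X differed with distance from tRNA genes. It was 43.3% (58 of 134) for summits within 250 bp of a tRNA start and 0 of 10 for those at 251 to 500 bp. Among the members it was 0 of 10 at 501 to 1000 bp, 7 of 90 at 1001 to 5000 bp (7.78%, 3.18 to 15.4) and 16 of 1175 beyond 5000 bp (1.36%, 0.780 to 2.20). On the autosomes the last pair of shares was 5.49% (2.54 to 10.2) and 3.04%. At the limit of the rule, the nearest members lay 506, 525 and 608 bp from a tRNA start, with ranks 8802, 8462 and 8060. The nearest regions left out lay at 334, 343 and 365 bp, with ranks 407, 2175 and 3908, and none of these 6 was in the IDR set.

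The strongest X regions lay in noncoding RNA genes to which the annotation gives no role. At rank 8 of the pooled list, and ranks 6 and 7 in replicates 1 and 2, was the region chrX:11605795-11606072, whose summit fell in F52D10.7, a noncoding RNA gene, 531 bp upstream of ftt-2, which encodes a phosphoserine-binding adaptor protein. Its signal of 402.3 was the highest of the X members. The overlapping region chrX:11605910-11606389, with its summit in F52D10.9, had pooled rank 52 and a signal of 228.9, and both matched 1 region in each replicate list. At rank 20 (26 in replicate 1 and 20 in replicate 2) was chrX:6207662-6208141, whose summit lay in the noncoding RNA gene C14F11.14, 215 bp upstream of T13C5.6, with a signal of 289.5. Its summit window holds a match to the B box pattern, as printed above. The regions at ranks 65 and 302, chrX:16929747-16930226 and chrX:16929948-16930427, lay in the noncoding RNA gene C30E1.9 and matched a single region that ranked 77 in replicate 1 and 43 in replicate 2. At these loci both replicates placed the region among their 100 strongest.

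MicroRNA genes lay at others. The intron of F09A5.3 at chrX:13144872-13145351 had rank 119 (203 and 83 in replicates 1 and 2) and a signal of 162.6, with its summit 18 bp upstream of mir-54, 188 bp upstream of mir-55 and 325 bp upstream of mir-56. These genes form a cluster of the mir-51 family, which acts in embryonic development. At rank 390 (653 and 503) was chrX:2368352-2368831, in the noncoding RNA gene T24D8.11 and 173 bp upstream of mir-73, and 451 bp upstream of mir-74. A neighbouring region with its summit inside mir-73 had rank 2498 and was the only X member whose summit lay in a small RNA gene. At mir-62 the best region had rank 595 (4268 in replicate 1 and 361 in replicate 2), outside the IDR set.

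Among regions next to protein-coding starts, several belonged to genes of known function, and the replicates differed widely at some of them. At kin-29, which encodes a kinase of the salt-inducible kinase family, the region chrX:2852356-2852835 lay 158 bp upstream of the start and ranked 195 (305 and 177). The tra-4 gene is its neighbour. The labels do not say how much of that neighbourhood the transgene carries, and the part of extra copies in this signal was not tested. At his-24, which encodes a linker histone, chrX:14490002-14490481 had its summit in a coding exon 148 bp downstream of the start and ranked 204 (178 and 238).

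The replicates differed more at the next genes. At hsp-3, which encodes an Hsp70-family chaperone of the endoplasmic reticulum, chrX:6091895-6092374 had its summit 11 bp upstream of the start and ranked 237, with ranks of 90 and 2768 in replicates 1 and 2. The opposite order was found at sto-4, a gene of the stomatin family (rank 285, 2109 in replicate 1 and 230 in replicate 2), at smex-2 (222, 2163 and 135) and at sec-3, which encodes a subunit of the exocyst (333, 1820 and 262). A region of rank 293 lay 574 bp upstream of spat-3, a RING finger gene, and a region of rank 320 lay 1007 bp upstream of ain-1, whose product acts with the microRNA silencing complex. Their ranks in replicates 1 and 2 were 260 and 320 for spat-3 and 246 and 609 for ain-1.

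The other IDR members lay inside genes or between them, some of the latter also near a protein-coding start. The intron of mom-1, which encodes a protein that acts in Wnt ligand secretion, held chrX:6296319-6296798 at rank 234 (1017 and 174). An intron of ldb-1, which encodes a LIM-domain-binding protein, held a region of rank 379 (208 and 926). The gene K08A8.31, a noncoding RNA gene beyond the end of sox-2, which encodes an HMG-box transcription factor, held a region of rank 203 (336 and 195). Regions at T22B2.9 and T22B2.12 near idpp-9 (rank 196), ZK816.3 (274), F59C12.4 (355), W02H3.3 (371) and sdz-19 (394) complete the set. Of these, the summits at ZK816.3, F59C12.4 and sdz-19 lay 395, 48 and 361 bp upstream of the start.

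The IDR members on X were thus unevenly reproduced. Their signals ran from 101.6 to 402.3, with a median of 123.7. Of the 23, 17 lay within the 394 strongest of replicate 1, 17 within those of replicate 2 and 12 within both. In replicate 1, 4 of them lay beyond rank 1000, and in replicate 2, 1 did. The Spearman correlation of their signals between replicates was 0.352 over 23 members, which match 21 distinct pairs of replicate regions and share both libraries.

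**Figure D3:**
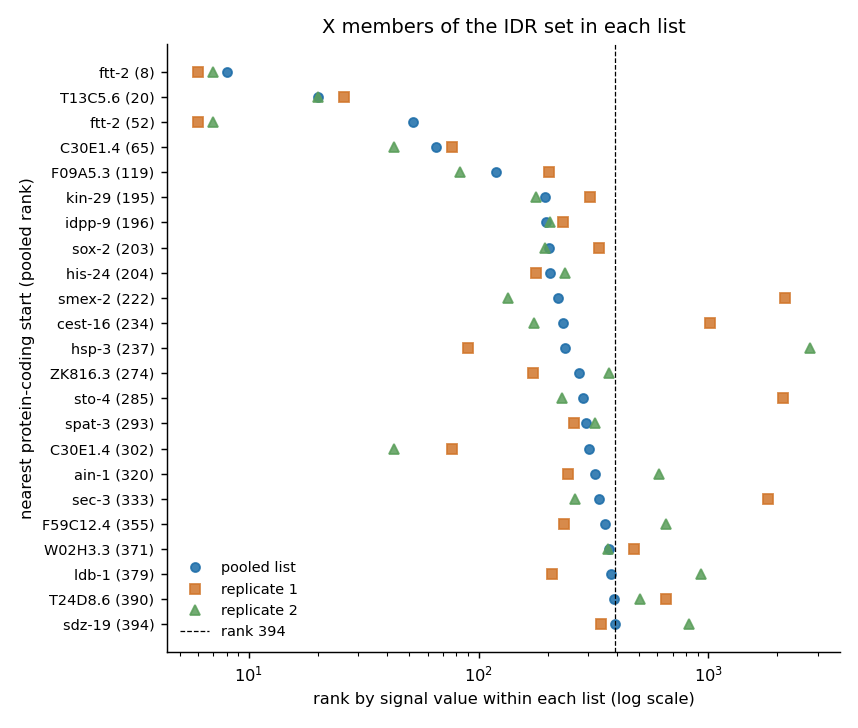
Rank by signal (log scale, strongest at left) of the 23 X members of the IDR set in the pooled list (blue) and in the lists of replicate 1 (orange) and replicate 2 (green), named by the nearest protein-coding start with the pooled rank in brackets; the dashed line marks rank 394. The regions at ftt-2, T13C5.6 and C30E1.4 lie left of rank 100 in both replicates, while hsp-3 moves from 90 to 2768 and smex-2 from 2163 to 135.

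Over all 1275 members, 998 (78.3%) overlapped a region of replicate 1, 1043 (81.8%) a region of replicate 2 and 779 (61.1%, 58.4 to 63.8) a region of both. The autosomal share found in both was 62.3%, with chromosomes between 60.2 and 63.7%. On X it was 100% at ranks 1 to 1000, 90.3% at ranks 1001 to 2500, 74.0% at ranks 2501 to 5000 and 42.5% beyond. The Spearman correlation of signals between replicates over members found in both was 0.239 on X (779 members) and 0.312 on the autosomes (5015 regions), as a description. The order of most X members within the list was therefore poorly shared between replicates.

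By gene context, X members were mostly intergenic or intronic, as the chromosome is. Intronic summits were 386 (30.3%, against 30.8% of X bases) and coding exons held 253 (19.8%, against 20.1%), near their shares of bases. Intergenic summits were 504 (39.5%, 36.8 to 42.3), below the 42.7% of X bases, and untranslated regions held 80 (6.27%, 5.01 to 7.75), above 4.86%. Noncoding RNA genes other than small RNA genes held 51 members (4.0%, 2.99 to 5.23) on 1.48% of X bases. On the autosomes the corresponding class had 1.58% of regions on 0.707% of bases. These 51 members were also the strongest by context, with a median rank of 2108. The median was 4667.5 in untranslated regions, 5282.5 in intergenic sequence, 5587 in introns and 5900 in coding exons. Among the 23 IDR members, 8 lay in such genes (34.8%, 16.4 to 57.3), against 9 of 249 on the autosomes (3.61%). These 8 entries include the overlapping pairs at ftt-2 and at C30E1.9, so they are fewer than 8 loci. The interval treats them as separate.

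Starts of noncoding RNA genes gave a like picture, and X is rich in them. X holds 2520 of the 7764 genes annotated as noncoding RNA of no further type. Of the X members, 243 (19.1%, 16.9 to 21.3) lay within 500 bp of such a start, where 9.87% of X bases lie. On the autosomes it was 8.70% of regions and 4.83% of bases. In the IDR set these were 14 of 23 on X (60.9%, 38.5 to 80.3) and 22.5% on the autosomes. The overlapping pairs at ftt-2 and at C30E1.9 are counted as separate entries here too. Only 4 X members lay within 500 bp of a snoRNA start and 0 of 1275 near a snRNA start (0%, 0 to 0.289). No IDR member on X was near either. On the autosomes 143 regions lay near a snoRNA start, 54 of them in the IDR set.

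**Figure D4:**
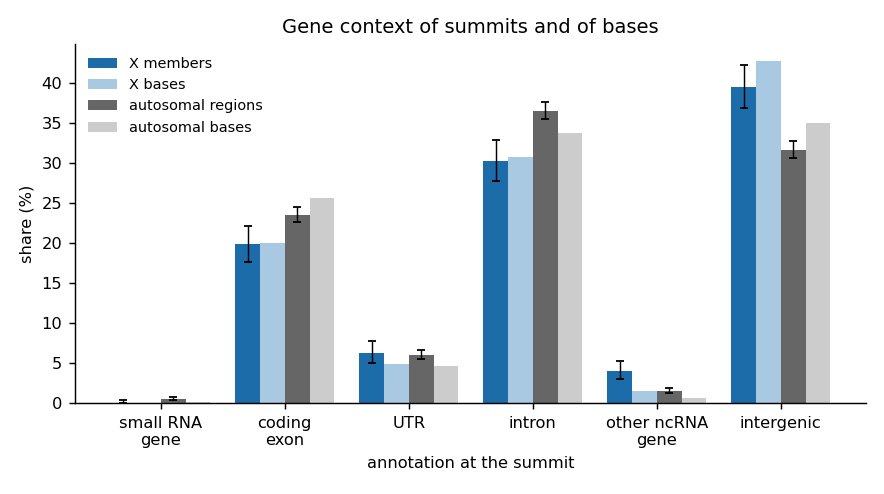
Share of summits (%, dark bars, with exact 95% intervals) and of bases (%, light bars) in each annotation class, for X members (blue) and autosomal regions away from tRNA starts (grey). Noncoding RNA genes outside the small RNA class hold 4.0% of X members on 1.48% of X bases, and intergenic sequence holds 39.5% of members on 42.7% of bases.

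Near protein-coding starts lay a smaller share of X members than of autosomal regions. A protein-coding start was within 500 bp of 249 X members (19.5%, 17.4 to 21.8) and of 25.6% of autosomal regions (24.2 to 27.6 by chromosome). X also has fewer such genes, 154 per Mb against 209 on the autosomes, and 15.1% of its bases lie as near to a start, against 19.6% of autosomal bases. In replicate 1 the shares were 18.3% on X and 24.0% on the autosomes (23.3 to 25.2), and in replicate 2 they were 19.4% and 23.8% (21.2 to 25.6). Both X and autosomal shares were above the share of bases. In the IDR set, 10 of the 23 X members (43.5%, 23.2 to 65.5) and 53.0% of the autosomal ones were near such a start.

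Where an X member was near a start, it was more often on the upstream side. Of the 249, 163 (65.5%, 59.2 to 71.4) had their summit upstream of the nearest start, against 52.4% on the autosomes (50.1 to 55.0 by chromosome). The upstream side held 49.2% of X bases within that distance and 47.5% of autosomal bases. The median position was -122 bp on X and -23 bp on the autosomes. The X share was smaller in each replicate list, 54.5% (50.2 to 58.8) in replicate 1 and 59.7% (54.5 to 64.7) in replicate 2, against 50.6% (48.8 to 53.3) and 50.9% (49.4 to 52.3). In the IDR set X and the autosomes had like shares, with 8 of 10 upstream on X (80%, 44.4 to 97.5) and 106 of 132 on the autosomes (80.3%, 72.5 to 86.7). This comparison was made after the values had been seen.

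Counted by gene, 241 of the 2731 protein-coding genes of X (8.82%, 7.79 to 9.95) had a member within 500 bp of their start, and 10 had an IDR member. Over all chromosomes 12% of protein-coding genes had such a region, and on the autosomes 12.5%. Of 7 X signal elements and other X-linked sex determination genes, 1 had a member. This was sex-1, a nuclear receptor gene that reports the number of X chromosomes, with rank 7144 (6086 in replicate 1, no region in replicate 2) at 465 bp from the start. A stronger region in the sex-1 gene body had rank 512. No IDR member lay near any of the 7.

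The other sex determination genes had members at a distance or none. At xol-1, the master switch of sex determination that X signal elements repress, the nearest member was 10157 bp away with rank 7416. The gene for the RNA-binding protein fox-1 held 6 members in its body, the best at rank 2391, and ceh-39, a ONECUT homeobox gene, held none. The dosage compensation genes sdc-1 and sdc-2 held 1 and 2 members, with best ranks 3975 and 1006. The tra-4 gene itself, which the transgene also expresses, held 2 members, the better at rank 2102. The part of transgene copies in their signal was not tested.

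The remaining lists gave small counts. Vitellogenin genes encode yolk proteins. None of the 5 listed here, which are those chosen on X, had a member near its start (0%, 0 to 52.2). Of 23 X-linked transcription factor genes 4 had one (17.4%, 4.95 to 38.8), elt-4 (rank 6324), nhr-25 (6933), unc-3 (6267) and lin-15A (1969). Of 18 neuron genes 2 had one (11.1%, 1.38 to 34.7), unc-115 (2702) and nlg-1 (3948). Of 10 body wall and cuticle genes 1 did (10%, 0.253 to 44.5), unc-27 (9458). Of 7 housekeeping genes 2 did (28.6%, 3.67 to 71.0), the ribosomal protein gene rpl-11.2 (6038) and his-24 (204). The interval of each of these protein-coding lists includes the 8.82% of all X protein-coding genes. The microRNA list had 6 of 14, mir-54, mir-55, mir-56, mir-62, mir-73 and mir-74, while 13 of all 74 X microRNA genes had one (17.6%). The first 3 of these share 1 region, and mir-73 and mir-74 share another, so 14 genes are not 14 observations.

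Along X, members were spread over the whole chromosome with more on the left side. Divided by length into 3 equal parts, X held 500 (39.2%, 36.5 to 42.0), 383 (30.0%, 27.5 to 32.6) and 392 (30.7%, 28.2 to 33.4) members, while the IDR members were 7, 9 and 7. The tRNA genes showed another order, 51, 107 and 118, and protein-coding genes were 871, 976 and 884. In the 17 full bins of 1 Mb the count ran from 53 to 125, with a median of 71. The highest was bin 3, from 2000001 to 3000000, and the next was bin 6 with 100. The lowest was bin 9, which holds 51 tRNA starts and where the rule left out 21 regions near them, against 7 in bin 3. Across the 17 bins the Spearman correlation of members was -0.311 with protein-coding starts and -0.403 with tRNA starts, as a description of bins that share 1 chromosome. Because the rule takes out regions near tRNA starts, the low count in bin 9 and the correlation with tRNA starts are in part set by the rule.

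The spacing was wider than on the autosomes, as the lower density implies. The median gap between neighbouring summits was 7228.5 bp on X and 4588.5 bp on the autosomes, and the longest gap on X was 150650 bp. Gaps under 500 bp made up 8.79% on X and 8.78% on the autosomes. The IDR members fell into 10 of the 18 bins, with 5 in bin 12 and 4 in bin 17. The pairs at ftt-2 and at C30E1.9 account for 1 more entry than loci in each of these bins.

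**Figure D5:**
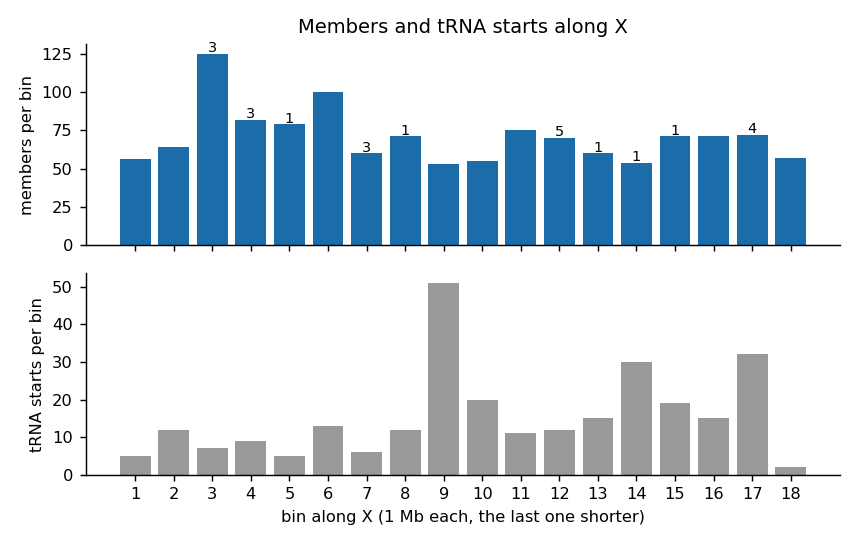
Number of X members (upper panel, blue) and of tRNA gene starts (lower panel, grey) in consecutive 1 Mb bins along X, the last bin being shorter; the figures over the bars give the IDR members. Bin 3 has 125 members and bin 9 has 53, where 51 tRNA starts lie and the rule left out 21 regions near them.

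The base composition at X summits was above that of the chromosome. The median GC content of the 101 bp around the summit was 40.6% for X members and 39.6% for autosomal regions, and X as a whole has 35.2%. In the replicate lists the X and autosomal medians were equal, at 37.6% in replicate 1 and 38.6% in replicate 2. For the IDR members it was 51.5% on X and 48.5% on the autosomes. Sequence that the reference marks as repeats took a mean of 25.1% of an X region and 30.6% of X, against 35.3% and 36.8% on the autosomes. Regions over 50% repeat were 6.27% on X and 23.1% on the autosomes. GC content was thus higher in the IDR set, the repeat share was lower on X, and their part in the ranks was not tested.

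The MEX core was rare on X and more frequent at the members than along the chromosome. GCGCAGGG, on either strand, was found in 8 of the 1275 windows (0.627%, 0.271 to 1.23), in 0.0388% of all windows of that length tiled along X, in 8 of 8047 autosomal windows (0.0994%) and in 0.0263% of autosomal tiles. The highest in rank were the mom-1 intron (234), which holds the core at 2 places, and the intergenic region near W02H3.3 (371), both printed above. The remaining 6 had ranks 1323, 1825, 1974, 6184, 6929 and 8365. The matches are few. The core consists mostly of G and C and the summit windows are GC-richer than the tiles, and the part of base composition in the excess was not tested. The motif list was also written after the IDR sequences, which include the 2 highest matches, had been seen.

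The B box pattern was no more frequent at X members than along X. It was in 50 windows (3.92%, 2.92 to 5.14), in 3.82% of X tiles, in 3.39% of autosomal windows and in 3.47% of autosomal tiles. The tiles cover whole chromosomes, so unlike the members they include the tRNA genes. Among IDR members it was in 3 of 23 on X (13.0%, 2.78 to 33.6) and in 24 of 249 on the autosomes (9.64%). The X members with it were T13C5.6 (rank 20), idpp-9 (196) and F59C12.4 (355), whose nearest annotated tRNA starts lay 12240, 55104 and 2121 bp away. No A box pattern was sought, and likeness to tRNA genes was not tested. Whether any of these sequences is transcribed was not measured.

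The other motifs gave no clear excess over the tiles save 1. The GAGA repeat GAGAGAG was in 2.90% of X windows and 1.25% of X tiles, and in 2.65% and 1.39% on the autosomes. The core of the TRA-1 site, GGGTGGTC, named for the terminal regulator of the sex determination pathway, was in 3 X windows (0.235%) and in 0.143% of X tiles. The E box CACGTG was in 1.33% and 1.32%, the GATA site TGATAA in 5.10% and 9.96%, and the TATA box TATAAA in 7.14% and 12.1%. The AT-rich patterns were thus less frequent at the GC-richer summits. None of the 23 IDR windows held any of these 5 patterns.

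Some of the IDR regions resemble each other in sequence. Over 251 pairs that do not overlap, the median local alignment score was 13, with 1 for a match and -1 for a mismatch. The regions at sto-4 and spat-3 aligned over 175 columns with 94.3% identity on opposite strands, including the dinucleotide runs printed above, which span 28 and 44 bp within the windows. The regions at idpp-9 and ZK816.3 aligned over 274 columns with 83.2% identity, also on opposite strands. T13C5.6 matched idpp-9 over 178 columns (80.3%) and ZK816.3 over 177 columns (79.7%). Shorter alignments linked T24D8.6 to sto-4 (66 columns, 89.4%) and to spat-3 (69 columns, 82.6%), and kin-29 to each of them. How much of these matches is simple repeat was not tested. Reads from similar sequences can be placed at either locus, and the labels do not say how such reads were treated. The ranks of the regions named here are uncertain to that extent.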

How the data were processed

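The lists and rules were chosen with earlier results of these data known. The motif list was written after the sequences of the IDR members had been looked at, and the looks at upstream side, repeats, tRNA distance steps and sequence similarity were added after values had been seen. The authors deposited, for each replicate and for the pooled replicates, a relaxed ce11 list of regions and background that was the input to the IDR step, and an optimal IDR list, per the deposited descriptions. The deposited signal value per region is on a scale that differs between lists and was used only for rank within a list. The deposited −log10 of the q-value gave the 0.05 threshold. The summit offset is also the authors'. A control alignment is listed among the sources per the deposited descriptions and was not analysed here. The sources used here name no peak caller, aligner or IDR cutoff and hold no read counts, so depth is unknown. The ce10 lists were not used.

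Gene starts, classes and tRNA genes came from Ensembl release 115 (46890 genes on 6 chromosomes), whose assembly WBcel235 is ce11. Coordinates are 1-based. A summit took the first class that applied in the order small RNA gene, coding exon, untranslated region, intron, other noncoding RNA gene, intergenic. Pseudogenes and piRNA genes had no class of their own, so their bases outside other genes counted as intergenic. In the pooled list a region counted as an IDR member when start, end and summit were identical. In replicate lists, where entries cannot be identical, an overlap of 1 bp counted. Genes named are those at the 15 strongest members, the 3 strongest of each class, the strongest in each of 3 equal parts of X and the list members with a summit within 500 bp, the sex determination genes whatever their values, and the remaining IDR members, which were named after their values were seen. Of the listed genes, those not on X or not matched by symbol were left out. Motifs were sought on both strands within 50 bp of the summit, and each motif was counted on its own, whether or not its match overlapped that of another. Local alignments used a gap opening score of -3 and extension score of -1. Shares carry exact 95% intervals and differences between shares carry normal-approximation intervals, both for counting error. Regions are not replicates, and no p-value was computed. The counting steps were tested on simulated data. Software was Python 3.11.15 with pandas 2.3.3, numpy 2.4.6, scipy 1.17.1, Biopython 1.88 and matplotlib 3.10.9.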

Additional observations from a re-analysis of the deposited data

How the results depend on the processing

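Of the alternatives, 76 values stayed within their interval or threshold, 25 moved and 2 reversed. Keeping only q-values under 0.05 left 30 X members: the X share was 7.77%, their IDR share 76.7%, the share near a protein-coding start 36.7% and the median percentile 3.08. The X minus autosomal difference then became 6.72 points for the IDR share (-9.14 to 22.6) and -0.0104 for the median percentile, both reversed, and -12.2 points near starts. The q-value and the IDR set both select the strongest regions, so this setting conditions on rank. Leaving out a replicate gave an X share of 14.3 to 15.6%. Within 200 bp of a start the share was 8.47% and within 1000 bp 32.2%. The share found in both replicates was 54.7% with 50% overlap and 37.2% with summits within 100 bp. Leaving out the noncoding RNA genes upstream of ftt-2, chosen after seeing the data, gave an IDR share of 1.65%. No paired analysis was possible because there is only 1 group. With 2 replicates, no read counts and a control that is not analysed here, differences of a few percentage points between chromosomes cannot be set against a spread between experiments.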
